A study of Homo sapiens with 15 samples.

Results

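Aminoacyl-tRNA synthetases join each amino acid to its tRNA, and this report follows their genes in 2 multiple myeloma cell lines grown with and without bone marrow stromal cells. The genes were chosen by symbol from the deposited tables, which hold the log2 of RPKM + 1 (RPKM being reads per kilobase of gene, scaled to the sum of reads on genes): a single letter for the amino acid followed by ARS, with no suffix, 1 or 2, together with EPRS, FARSA and FARSB. This rule found 36 of 20468 genes, the same 36 in both tables. Of these, 20 carry no suffix or a letter and encode cytosolic enzymes, and 16 end in 2 and encode mitochondrial enzymes. GARS and KARS are counted as cytosolic, although each gene supplies the enzyme of both compartments. The symbol of IARS2, the mitochondrial isoleucine enzyme, is written in lower case in the tables and is not matched by the rule; its values are given beside those of the members.

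The study cultured the established human lines MM.1S and RPMI8226 for 48 h in 3 ways. In monoculture (MONO) the myeloma cells grew alone, in the transwell (TSW) they grew in an upper insert above a layer of HS5 stromal cells with myeloma cells, and in coculture (CO) they were the myeloma cells of that lower chamber, in contact with HS5. Cells without CD90 and with CD38 were sorted, and their mRNA was sequenced in 3 libraries per condition for MM.1S and 2 for RPMI8226. According to the methods, a small share of HS5 cells remained in the sorted CO cells, HS5 being itself an established stromal line.

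A synthetase activates its amino acid with ATP and transfers it to the matching tRNA. Each codon for an amino acid depends on the charged tRNA that 1 of these enzymes makes. The cytosol and the mitochondria run separate translation systems, and in humans most amino acids have separate nuclear genes for the enzymes of each compartment. Several cytosolic enzymes sit together in the multisynthetase complex, held by the scaffold proteins AIMP1, AIMP2 and EEF1E1. Genes of cytosolic synthetases are known targets of ATF4, the transcription factor of the amino acid response, and WARS is also a known target of interferon gamma. Plasma cells and the myeloma cells derived from them secrete large amounts of immunoglobulin, which places a high demand on translation.

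A single library stands apart from the others of its condition. On all genes tested in MM.1S, the first MONO library lay at a mean distance of 43.8 from the other MONO libraries on the log2(RPKM + 1) scale, against 34.9 and 35 for the other MONO libraries and 15.6 to 21.5 for the TSW and CO libraries. It also had the fewest tags on genes, 9008909 against 13126596 to 19050583 in the other 8, and its deviations from the MM.1S mean fell with gene length (Spearman correlation -0.51). The other libraries had correlations with length of -0.02 and 0.14 (MONO), -0.08, 0.10 and 0.21 (TSW) and 0.40, 0.08 and 0.32 (CO) in MM.1S, and -0.13 and -0.12 (MONO), -0.03 and -0.16 (TSW) and 0.24 and 0.25 (CO) in RPMI8226. With GC content they were 0.40, 0.33 and -0.16 (MONO), 0.17, 0.01 and -0.39 (TSW) and -0.49, -0.02 and -0.45 (CO) in MM.1S, and 0.04 and 0.16 (MONO), -0.07 and 0.43 (TSW) and -0.31 and -0.25 (CO) in RPMI8226. Where a number given here of the genes of a list called in MM.1S changes without this library, both numbers are given. In RPMI8226 the mean distances within a condition ran from 15 to 18.8.

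The promoters of 2 cytosolic members that hold the same 8 letters are shown. They were chosen by mean log2 fold change over the 4 comparisons with MONO, among members whose promoter holds these letters. Both genes rose in MM.1S, as described below, which is not separate from this choice. The motif searched was TGATGCAA, the composite site of an ATF and a C/EBP protein as found in genes of the amino acid response, on both strands. RefSeq promoters (GRCh38.p14, 250 bases before to 50 after the start) were present for 29 of the 36 members, some with several starts. The motif is in a promoter of 295 of 27305 genes of the table (1.08%). It is in a promoter of 6 of 16 cytosolic genes (37.5%), among them MARS, TARS, NARS and IARS, and in 0 of 13 mitochondrial genes. With any base at the sixth letter (TGATGNAA) the matches include the exact ones; 4.46% of all genes hold it, as do 7 cytosolic genes (GARS in addition) and 1 mitochondrial gene (YARS2). The stretches are chr12:57487818-57488117 on the plus strand for MARS and chr5:33440715-33441014 on the plus strand for TARS. They are written 5′ to 3′ on the strand of the gene. The capitals mark the motif, which in both lies on the opposite strand and so reads TTGCATCA. Its first letter is at position -4 from the start in MARS and 2 from the start of the stretch shown in TARS. RefSeq gives TARS another start further upstream, and its stretch, chr5:33440446-33440745, holds no match. A match is a description of the letters, not evidence of binding.
MARS: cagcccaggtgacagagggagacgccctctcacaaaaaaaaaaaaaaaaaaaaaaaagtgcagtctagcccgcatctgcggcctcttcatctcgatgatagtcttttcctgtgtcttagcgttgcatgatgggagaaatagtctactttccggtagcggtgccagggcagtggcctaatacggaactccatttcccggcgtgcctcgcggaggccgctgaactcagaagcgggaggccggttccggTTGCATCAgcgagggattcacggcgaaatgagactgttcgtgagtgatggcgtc
TARS: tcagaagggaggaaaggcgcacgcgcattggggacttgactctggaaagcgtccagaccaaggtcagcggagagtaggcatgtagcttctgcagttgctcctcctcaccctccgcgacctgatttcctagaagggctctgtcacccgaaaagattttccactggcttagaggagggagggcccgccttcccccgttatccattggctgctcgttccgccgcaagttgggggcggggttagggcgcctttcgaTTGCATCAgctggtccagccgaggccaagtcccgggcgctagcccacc

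The cytosolic synthetase genes as a group were expressed at far higher levels than the mitochondrial ones in every library. In MM.1S MONO, the mean RPKM of the cytosolic members ran from 16.8 (SARS) to 156 (EPRS) with a median of 76.4, and that of the mitochondrial members had a median of 11.3 and was lowest in PARS2 (2.32). In RPMI8226 MONO the cytosolic members ran from 12.6 (CARS) to 236 (KARS) with a median of 78.2, and the mitochondrial members had a median of 11.5 and were lowest in VARS2 (2.05). The ranges of the compartments overlap in MONO: 14 of 16 mitochondrial members lay below every cytosolic member in each MM.1S MONO library, and 8 of 16 in each RPMI8226 MONO library. In every TSW library of MM.1S and every CO library of RPMI8226, all 16 lay below all 20. In the CO libraries of MM.1S 14, 15 and 15 of 16 did, and in the TSW libraries of RPMI8226 16 and 14. IARS2 is an exception to this order among mitochondrial enzymes: its RPKM was 45.9, 62.3 and 63.2 (MONO), 61.1, 61 and 63.7 (TSW) and 57.5, 64.2 and 64.6 (CO) in MM.1S, and 100 and 100.2 (MONO), 90.7 and 88.2 (TSW) and 74 and 82.1 (CO) in RPMI8226.

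The distance between the compartments widened in both kinds of culture with stromal cells. The mean log2(RPKM + 1) of the cytosolic members minus that of the mitochondrial members was 2.58, 2.51 and 2.55 in the MM.1S MONO libraries, 3.13, 3.10 and 3.11 in TSW and 3.07, 3.05 and 3.07 in CO. In RPMI8226 it was 2.68 and 2.65 in MONO, with 3.47 and 3.35 in TSW and 3.48 and 3.30 in CO. In both lines every TSW and CO library lay above every MONO library, while TSW and CO libraries of RPMI8226 overlap. In MM.1S the mean of the cytosolic members went from 6.02, 6.07 and 5.996 in MONO to 6.61, 6.58 and 6.55 in TSW and 6.41, 6.53 and 6.51 in CO, and that of the mitochondrial members was 3.43, 3.56 and 3.44 in MONO, 3.48, 3.48 and 3.44 in TSW and 3.34, 3.48 and 3.44 in CO. In RPMI8226 the mean of the cytosolic members was 6.19 and 6.19 in MONO, 6.64 and 6.53 in TSW and 6.37 and 6.28 in CO, and that of the mitochondrial members 3.51 and 3.54 in MONO, 3.17 and 3.18 in TSW and 2.89 and 2.97 in CO. The mitochondrial means of the 3 conditions overlap in MM.1S, and in RPMI8226 they are lower in TSW than in MONO and lowest in CO. The difference between the lines was not tested. In such bulk samples, fewer cells of a type and less RNA per cell cannot be told apart.

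**Figure D1:**
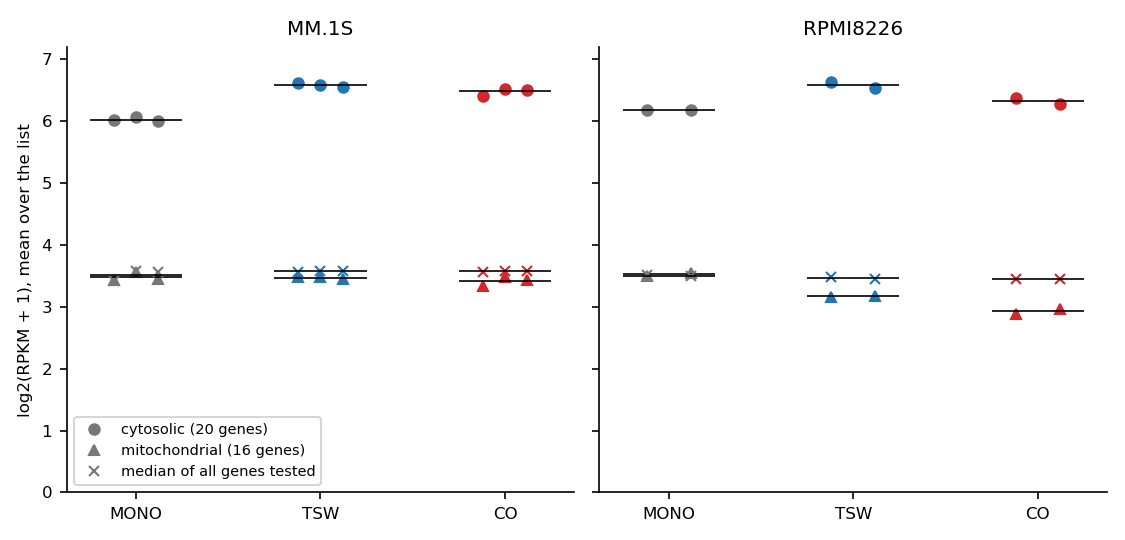
Mean level of cytosolic (circles, 20 genes) and mitochondrial (triangles, 16 genes) synthetase genes in each library, on the log2(RPKM + 1) scale, with the median of all genes tested (crosses). Bars are means over the libraries of a condition (3 in MM.1S, 2 in RPMI8226). The cytosolic mean is higher in TSW and CO than in MONO in both lines, and every TSW and CO library of RPMI8226 has a lower mitochondrial mean than its MONO libraries, while these overlap in MM.1S.

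Differences between conditions were tested gene by gene with limma on log2(RPKM + 1), all conditions of a line in a single fit, over the genes whose RPKM averaged 1 or more in the line (10153 in MM.1S and 10319 in RPMI8226). All 36 members passed this filter in both lines. A gene is called where its adjusted p is under 0.05 and its fold change over 1.5. The labels do not say whether the replicates are independent cultures, so these p-values measure the spread between these samples. TSW and CO are each compared with the same MONO libraries, and the lines were normalized and tested apart. Libraries that do not overlap with MONO, in either direction, are common. In MM.1S this held for 44% of all genes tested in TSW and 43.9% in CO, and in RPMI8226 for 82.9% and 87%.

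In MM.1S, 12 of 20 cytosolic synthetase genes rose in culture above stromal cells and 11 in contact with them, and no member fell. In TSW against MONO, 12 of 20 cytosolic members rose (AARS, CARS, EPRS, GARS, IARS, LARS, MARS, NARS, SARS, TARS, WARS and YARS), against 6.48% of all genes tested that were called higher and 4.16% called lower. Their median log2 fold change over all 20 was 0.73, beside 0.01 for all genes. In CO against MONO, 11 rose (the same without YARS), against 7.13% of all genes higher and 4.65% lower, with a median of 0.62 beside 0.01. YARS was at 0.58 in CO (adjusted p = 0.000862), just under the threshold on fold change. Without the first MONO library, 10 members rose in TSW (EPRS and LARS were not called) and 8 in CO (EPRS, LARS, NARS and TARS were not called, and YARS was). EPRS was also not called in CO with median-of-ratios scaling or without CO library 2 or 3. With the correction for GC content and length, EPRS, LARS and TARS were not called in CO and YARS was, which made 9 higher.

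In RPMI8226, 7 of 20 cytosolic genes rose in TSW and in CO, and 1 and 3 of 20 fell. In TSW against MONO the members that rose were AARS, CARS, GARS, MARS, SARS, WARS and YARS, and FARSB fell, against 14.5% of all genes called higher and 17.9% called lower. The median over the 20 was 0.11 (0.19 with median-of-ratios scaling, 0.21 with the GC and length correction and 0.20 without TSW library 2). For all genes the median was -0.08 (-0.01, -0.001 and -0.07 in those settings). In CO against MONO the same 7 rose and FARSA, FARSB and RARS fell, against 16.4% of all genes higher and 22.9% lower. The median was -0.06 (0.05 with median-of-ratios scaling, 0.04 with quantile normalization and 0.07 with the correction for GC content and length), beside -0.09 for all genes (0, -0.04 and -0.01 in those settings). FARSB was not called in TSW with median-of-ratios scaling, quantile normalization or the GC and length correction, nor without MONO library 1 or TSW library 2 (0 called lower). The GC and length correction left FARSB alone called lower in CO. RARS was also not called in CO with median-of-ratios scaling, quantile normalization or without CO library 1.

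**Figure D2:**
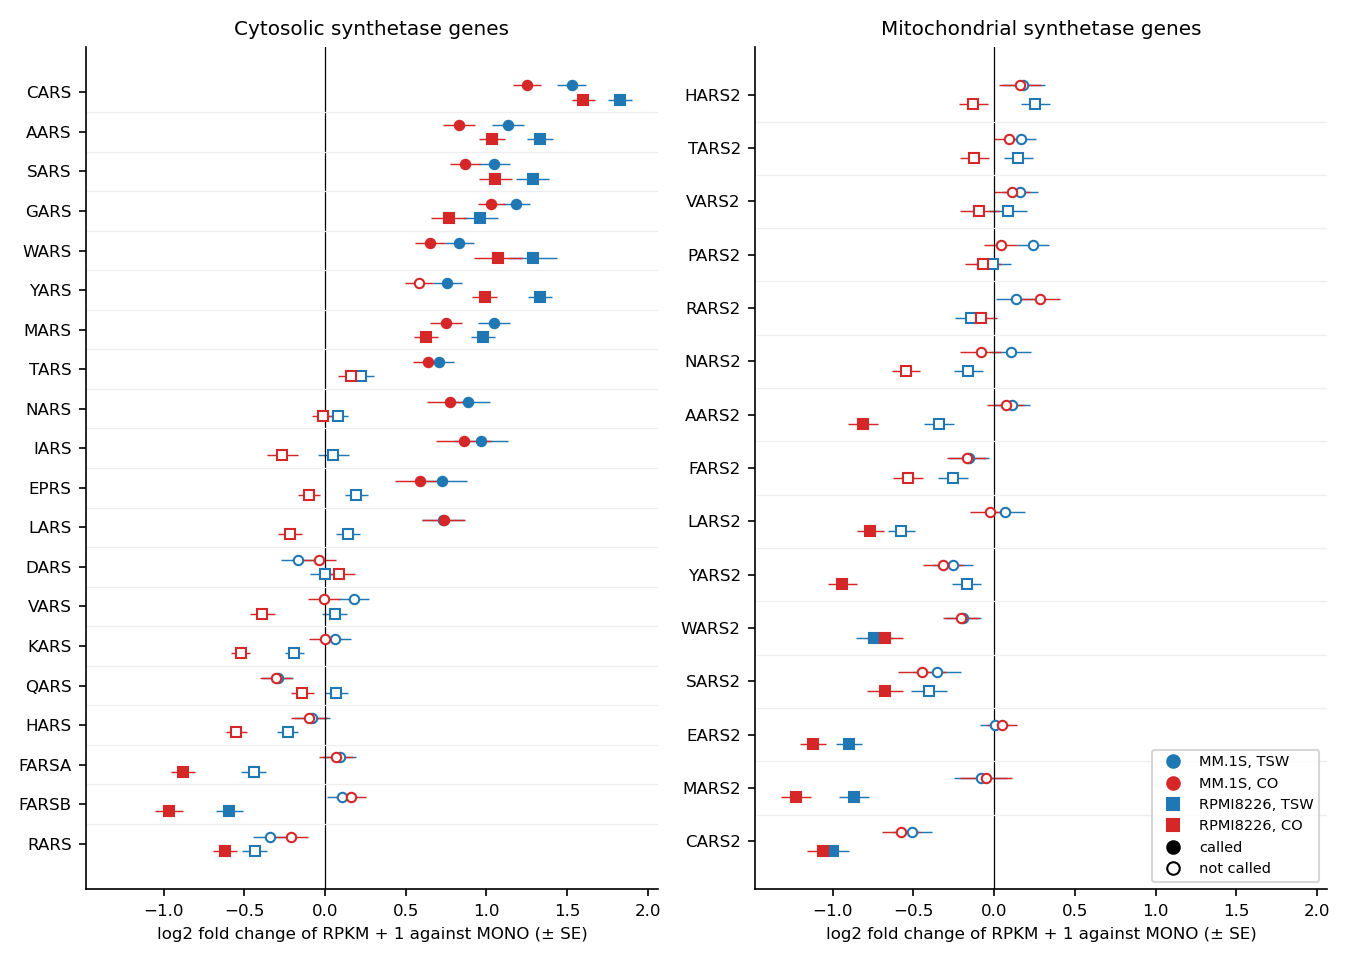
Log2 fold change of synthetase genes against MONO with its standard error, cytosolic genes on the left and 15 mitochondrial genes on the right, each ordered by its mean over the 4 comparisons. Filled symbols are called (limma adjusted p under 0.05 and fold change over 1.5). The upper 7 cytosolic genes lie to the right in both lines, the next 5 mostly in MM.1S (circles), and the lower mitochondrial genes lie to the left in RPMI8226 (squares).

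CARS, the cysteine enzyme, had the largest change of the cytosolic members. Its RPKM in MM.1S was 28.4, 24.7 and 24.8 (MONO), 79, 75.1 and 75.6 (TSW) and 59.2, 67.1 and 63 (CO), and in RPMI8226 12.2 and 13.1 (MONO), 48.5 and 46.2 (TSW) and 40.9 and 39.8 (CO). In both lines all TSW and CO libraries are above all MONO libraries, and TSW is above CO. The log2 fold changes were 1.53 (SE 0.089) in TSW and 1.25 in CO of MM.1S, and 1.83 (SE 0.073) and 1.60 in RPMI8226 (adjusted p 8.9e-07, 3.11e-06, 1.6e-08 and 2.91e-08).

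AARS, the alanine enzyme, was among the most abundant members. Its RPKM was 107, 110.2 and 95.7 (MONO), 236, 238 and 215 (TSW) and 176, 203 and 179 (CO) in MM.1S, and 159.6 and 166 (MONO), 423 and 401 (TSW) and 360.5 and 311 (CO) in RPMI8226, the highest RPMI8226 level of any member in TSW and CO. The groups do not overlap with MONO in either line. limma gave log2 fold changes of 1.13 and 0.83 in MM.1S (adjusted p 1.6e-05 and 0.000161), and 1.33 and 1.04 in RPMI8226 (2.42e-07 and 1.01e-06). SARS, the serine enzyme, was at 17.8, 16.8 and 15.8 (MONO), 35.3, 37.5 and 34.6 (TSW) and 28.2, 32.6 and 33.6 (CO) in MM.1S, the lowest level of the cytosolic members in each MM.1S condition, and at 16.2 and 15.5 (MONO), 43.9 and 36.8 (TSW) and 37 and 31.3 (CO) in RPMI8226. All TSW and CO values are above all MONO values in both lines. For SARS the log2 fold changes were 1.05 and 0.87 in MM.1S, and 1.29 and 1.05 in RPMI8226 (adjusted p 1.79e-05, 7.45e-05, 1.89e-06 and 5.96e-06).

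GARS, the glycine enzyme of both compartments, rose with the cytosolic group, while KARS, the lysine enzyme of both compartments, did not pass the test. The RPKM of GARS was 92.2, 96.5 and 93 (MONO), 222, 212 and 210.3 (TSW) and 183, 195 and 200.4 (CO) in MM.1S, and 72.4 and 70.5 (MONO), 156 and 126 (TSW) and 134 and 112 (CO) in RPMI8226. All TSW and CO values are above all MONO values, with log2 fold changes of 1.19 and 1.03 in MM.1S and 0.96 and 0.77 in RPMI8226 (adjusted p 3.32e-06, 8.17e-06, 2.49e-05 and 0.000102). KARS was at 92.5, 91.6 and 79.3 (MONO), 99.2, 87.8 and 87.9 (TSW) and 80.6, 91.6 and 91.2 (CO) in MM.1S, where the 3 conditions overlap. In RPMI8226 it was at 235 and 237 (MONO), 206 and 207 (TSW) and 164 and 164 (CO), where both TSW and both CO values are below MONO. Its log2 fold changes were 0.06 and 0.00 in MM.1S, and -0.19 and -0.52 in RPMI8226, the last with an adjusted p of 2.08e-05 and under the threshold on fold change.

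WARS, the tryptophan enzyme, and YARS, the tyrosine enzyme, are class I enzymes with larger changes in RPMI8226 than in MM.1S; that difference between lines was not tested. The RPKM of WARS was 22.8, 20.2 and 19.1 (MONO), 36.6, 38.6 and 37.7 (TSW) and 32.1, 35.5 and 31.5 (CO) in MM.1S, and 38.3 and 33.3 (MONO), 101 and 77.5 (TSW) and 88.5 and 65.8 (CO) in RPMI8226. YARS was at 85.8, 87.1 and 79.6 (MONO), 147, 144 and 138 (TSW) and 120.4, 138 and 122 (CO) in MM.1S, and 78.7 and 76.8 (MONO), 201 and 193 (TSW) and 166 and 145 (CO) in RPMI8226. Both genes are above MONO in every TSW and CO library. In the fit the log2 fold changes of WARS were 0.83 and 0.65 in MM.1S and 1.29 and 1.07 in RPMI8226 (adjusted p 9.14e-05, 0.000511, 2.78e-05 and 8.13e-05). Those of YARS were 0.76 and 0.58, and 1.33 and 0.99 (adjusted p 0.000144, 0.000862, 1.76e-07 and 1.03e-06).

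MARS, the methionine enzyme, is the last of the 7 called in both lines in TSW: its log2 fold changes were 1.04 and 0.75 in MM.1S, and 0.98 and 0.63 in RPMI8226. Without CO library 1 of RPMI8226 it was not called in CO, which left 6 cytosolic members higher. EPRS, IARS, LARS, NARS and TARS, the enzymes for glutamate and proline, isoleucine, leucine, asparagine and threonine, rose in MM.1S and were not called in RPMI8226; the difference between lines was not tested. In TSW their log2 fold changes in MM.1S were 0.73, 0.97, 0.73, 0.88 and 0.71, beside 0.19, 0.05, 0.15, 0.08 and 0.22 in RPMI8226. In CO they were 0.59, 0.86, 0.74, 0.78 and 0.64, beside -0.10, -0.27, -0.21, -0.01 and 0.16. The mean RPKM of IARS, as an example, was 73.3 in MM.1S MONO, 141 in its TSW and 131 in its CO libraries, and 60.4, 62.8 and 50.1 in RPMI8226.

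Among the members that fell in RPMI8226 are the genes of both subunits of the phenylalanine enzyme. FARSA had a mean RPKM of 103 (MONO), 75.9 (TSW) and 55.6 (CO), and FARSB of 78.6, 51.9 and 39.7. In CO against MONO the log2 fold changes were -0.88 (adjusted p 2.73e-06) and -0.97 (2.63e-06). RARS, the arginine enzyme, was at -0.62 (3.58e-05). In MM.1S the same genes were at 0.07, 0.16 and -0.21 in CO and were not called. DARS, the aspartate enzyme, had the smallest mean absolute change of the cytosolic members over the 4 comparisons. Its RPKM was 56.7, 42.3 and 44.4 (MONO), 41.8, 40.9 and 43.9 (TSW) and 44.8, 47.1 and 46.4 (CO) in MM.1S, and 33.1 and 34.1 (MONO), 37.4 and 30.2 (TSW) and 35.4 and 36.2 (CO) in RPMI8226. TSW overlaps with MONO in both lines and CO in MM.1S, and its log2 fold changes ran from -0.17 to 0.09. HARS, QARS and VARS were not called in any comparison either.

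**Figure D3:**
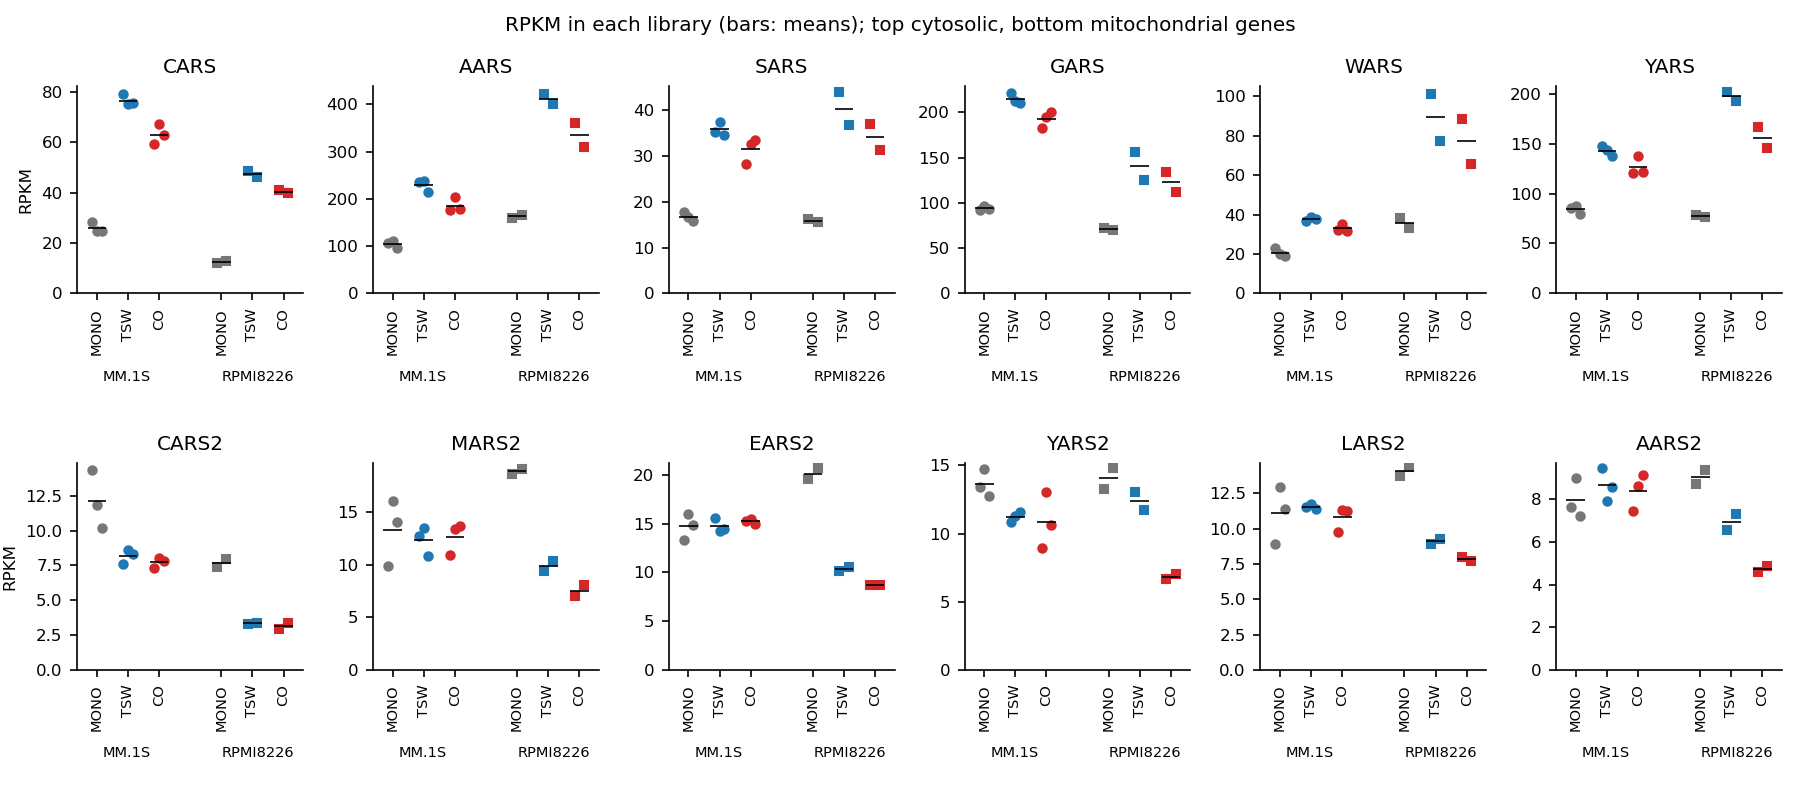
RPKM of 12 synthetase genes in each library, with MM.1S on the left (circles) and RPMI8226 on the right (squares) of each panel and bars at the mean of each condition. The upper row holds the 6 cytosolic genes with the largest mean absolute log2 fold change, and the lower row the 6 mitochondrial genes with the largest called change. The cytosolic genes are above MONO in TSW and CO in both lines; the mitochondrial genes are below MONO in CO of RPMI8226.

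No mitochondrial synthetase gene was called higher against MONO in either line, and in RPMI8226 some fell. In MM.1S, 0 of 16 were called in either direction in TSW against MONO (3 at an unadjusted p under 0.05 and 0 by voom), and 0 in CO against MONO (4 at an unadjusted p under 0.05, and 1 called lower by voom, CARS2). Their medians were 0.09 and 0.01, beside 0.01 and 0.01 for all genes. Without the first MONO library they were -0.05 and -0.07, so that both turn, where those of all genes were 0.003 and -0.003. The median in CO was -0.01 with median-of-ratios scaling and -0.07 with quantile normalization, where those of all genes were -0.01 and -0.02. Of all genes in MM.1S, 6.48% were called higher and 4.16% lower in TSW, and 7.13% and 4.65% in CO, and 4095 and 4467 of 10153 had an unadjusted p under 0.05. In RPMI8226, 4 fell in TSW (CARS2, EARS2, MARS2 and WARS2), with a median of -0.30. In CO, 9 fell (these 4 among them), the median was -0.66, and all 16 had a log2 fold change below 0. None was called higher. In the same comparisons 17.9% and 22.9% of all genes were called lower, with medians of -0.08 and -0.09. In CO, SARS2 was not called with median-of-ratios scaling, the GC and length correction or without CO library 1, and WARS2 was not called without MONO library 1.

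CARS2, the mitochondrial cysteine enzyme, fell in RPMI8226, and in MM.1S was lower in every TSW and CO library than in any MONO library. Its RPKM was 14.3, 11.8 and 10.2 (MONO), 7.59, 8.61 and 8.31 (TSW) and 7.29, 8.04 and 7.8 (CO) in MM.1S, and 7.37 and 7.93 (MONO), 3.29 and 3.38 (TSW) and 2.91 and 3.38 (CO) in RPMI8226. No TSW or CO library overlaps with MONO in RPMI8226 either. The log2 fold changes were -0.51 and -0.58 in MM.1S (adjusted p 0.0102 and 0.00467), short of the threshold on fold change, and -0.996 and -1.06 in RPMI8226 (9.03e-06 and 4.05e-06). In MM.1S it was called lower in TSW without MONO library 3 (1 member), and in CO without MONO library 2, CO library 2 or CO library 3 (1 member each). Without MONO library 3, CARS2 and SARS2 were called lower in CO (2 members). A pseudocount of 0.1, median-of-ratios scaling and quantile normalization each also gave 1 member called lower in CO of MM.1S, CARS2.

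MARS2 and EARS2, the mitochondrial methionine and glutamate enzymes, fell in TSW and CO of RPMI8226. MARS2 was at 18.6 and 19.1 (MONO), 9.42 and 10.4 (TSW) and 6.99 and 8.03 (CO) in RPMI8226, and at 9.85, 16 and 14 (MONO), 12.7, 13.46 and 10.8 (TSW) and 10.9, 13.4 and 13.7 (CO) in MM.1S. EARS2 was at 19.6 and 20.7 (MONO), 10.2 and 10.5 (TSW) and 8.71 and 8.71 (CO) in RPMI8226, and at 13.3, 16 and 14.9 (MONO), 15.6, 14.2 and 14.5 (TSW) and 15.3, 15.5 and 15 (CO) in MM.1S. For both genes the RPMI8226 MONO values are above all others and the MM.1S conditions overlap. In RPMI8226 the log2 fold changes of MARS2 were -0.87 and -1.23 (adjusted p 1.51e-05 and 8.67e-07), and those of EARS2 -0.90 and -1.12 (3.94e-06 and 5.46e-07). In MM.1S, MARS2 was at -0.08 and -0.05, and EARS2 at 0.00 and 0.05.

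LARS2 and AARS2, the mitochondrial leucine and alanine enzymes, fell in CO of RPMI8226 and were not called in TSW in the fit as reported. LARS2 was called lower in TSW by voom, with a pseudocount of 0.1, and without MONO library 1 or TSW library 2 (5 members lower instead of 4). LARS2 was at 13.8 and 14.3 (MONO), 8.93 and 9.28 (TSW) and 8.02 and 7.68 (CO) in RPMI8226, and at 8.88, 13 and 11.4 (MONO), 11.5, 11.7 and 11.4 (TSW) and 9.77, 11.3 and 11.3 (CO) in MM.1S. AARS2 was at 8.69 and 9.38 (MONO), 6.54 and 7.32 (TSW) and 4.57 and 4.86 (CO) in RPMI8226, and at 7.62, 9 and 7.22 (MONO), 9.47, 7.92 and 8.56 (TSW) and 7.43, 8.63 and 9.13 (CO) in MM.1S. In RPMI8226 neither TSW nor CO overlaps with MONO, and in MM.1S both do. The log2 fold changes in CO of RPMI8226 were -0.77 (adjusted p 1.19e-05) and -0.81 (2.16e-05); in TSW they were -0.57 and -0.34. WARS2 was at -0.74 in TSW and -0.68 in CO, and SARS2 at -0.40 and -0.68. In the fit as reported, limma called 7 of the 16 mitochondrial members in no comparison, among them HARS2, TARS2 and VARS2. FARS2 and NARS2 were called lower in CO of RPMI8226 by voom, with a pseudocount of 0.1 and without CO library 2, which made 11 lower instead of 9. IARS2 was at 0.13 and 0.13 in MM.1S (-0.02 in both without the first MONO library), and -0.16 and -0.36 in RPMI8226, and was not called.

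Setting the genes of the same amino acid side by side gives 13 pairs with 1 gene per compartment. The cytosolic log2 fold change was above the mitochondrial one in 10 pairs in TSW and 9 in CO of MM.1S, and in 10 and 10 in RPMI8226. The median differences were 0.78, 0.76, 0.72 and 0.73. The cysteine pair was furthest apart in each, with CARS above CARS2 by 2.03 and 1.83 in MM.1S and 2.82 and 2.66 in RPMI8226. In RPMI8226, 6 pairs in CO (alanine, cysteine, methionine, serine, tryptophan and tyrosine) and 3 in TSW (cysteine, methionine and tryptophan) joined a cytosolic gene that rose with a mitochondrial gene that fell. Of all genes in this line, 16.4% were called higher and 22.9% lower in CO, and 14.5% and 17.9% in TSW. The pairs for arginine and histidine ran the other way in both lines, with differences of -0.54 for RARS against RARS2 and -0.42 for HARS against HARS2 in CO of RPMI8226. Over the members, the difference between the mean log2 fold changes of cytosolic and mitochondrial genes was 0.57 in TSW and 0.52 in CO of MM.1S, and 0.75 and 0.73 in RPMI8226.

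Over all 36 members, the log2 fold changes of the lines had a Pearson correlation of 0.83 in TSW against MONO and 0.78 in CO against MONO (n = 36 genes; each line has its own libraries, and gene length and base composition are shared). Within the 16 mitochondrial members it was 0.58 and 0.55, and within the 20 cytosolic members 0.79 and 0.73. Of the members, 7 rose in both lines in TSW and 6 in CO (7 and 7 without the first MONO library of MM.1S), and 0 fell in both. Of 9398 genes tested in both lines, 3.48% rose in both in TSW and 4.15% in CO, and 1.71% and 2.13% fell in both.

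Few genes differed between CO and TSW in MM.1S. None of the 36 members was called, where 0.374% of all genes were higher and 0.0394% lower. Of the cytosolic members 3 had an unadjusted p under 0.05, and of the mitochondrial members 0 (8 and 2 without the first MONO library). Of all genes tested 450 of 10153 did. With voom 0 were called in each group. The medians were -0.11 for cytosolic and -0.06 for mitochondrial members, beside -0.001 for all genes. In RPMI8226 most members of both compartments were a little lower in CO than in TSW. Of the cytosolic members 0 were called, 15 of 20 had an unadjusted p under 0.05 (12 with an adjusted p under 0.05 but under the threshold on fold change), and voom called 0. Among mitochondrial members YARS2 fell, 10 of 16 had an unadjusted p under 0.05 and 6 an adjusted p under 0.05. Of all genes tested 4169 of 10319 and 2849 (27.6%) did. The medians were -0.30 and -0.25, beside -0.04. Of all genes 1.9% were called higher and 2.39% lower, 196 and 247 genes. Quantile normalization gave 249 and 173, and the GC and length correction 186 and 100. Without TSW library 1 these counts were 388 and 331, and without TSW library 2 they were 137 and 184.

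YARS2, the mitochondrial tyrosine enzyme, is the only member called between CO and TSW. Its RPKM in RPMI8226 was 13.3 and 14.8 (MONO), 13 and 11.7 (TSW) and 6.64 and 7.04 (CO), so that both CO values are below all others and the TSW and MONO values lie next to each other without crossing. CO against TSW gave -0.77 on the log2 scale (adjusted p 0.000459), and CO against MONO -0.94 (6.23e-06). In MM.1S it was at 13.4, 14.8 and 12.7 (MONO), 10.8, 11.3 and 11.6 (TSW) and 8.93, 13.1 and 10.6 (CO), with log2 fold changes of -0.26 and -0.32, not called.

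Beside all results in CO stand the markers of stromal cells. Of 22 such genes, 10 to 13 had a tag in the MONO and TSW libraries and 20 or 21 in each CO library. In MM.1S their summed RPKM was 33.9, 35.2 and 33.7 (MONO), 28.7, 28.3 and 31.7 (TSW) and 159, 174 and 148 (CO). Among the markers that are never above 0 in MONO and TSW of this line, MMP1 was the most abundant in CO, at 44.5, 46.9 and 41; COL1A2 was at 10.8, 13.4 and 10.2 and COL3A1 at 8.96, 11.3 and 8.66, and POSTN was at 0 in every CO library. In RPMI8226 MMP1 was at 35.1 and 53.2 in CO and 0 elsewhere, and the summed RPKM of 4090 and 4415 (MONO), 1877 and 2186 (TSW), and 2233 and 2445 (CO) is mostly FN1, which this line expresses itself. In CO against MONO of MM.1S, 9 of 11 called markers average an RPKM under 1 in MONO and reach the filter through CO, so counts of called markers are not read as results here. Their part in the CO results was not tested. The 10 myeloma markers had a tag in every library. In MM.1S 3 rose and 2 fell in TSW, and 2 rose (1 without the first MONO library) and 2 fell in CO; in RPMI8226, 6 rose and 2 fell in each, of 9 tested. Of all genes 6.48% and 7.13% were higher and 4.16% and 4.65% lower in MM.1S, and 14.5% and 16.4% higher and 17.9% and 22.9% lower in RPMI8226. TNFRSF17, the receptor BCMA, fell in both lines, with log2 fold changes of -1.80 and -2.14 in MM.1S and -3.50 and -3.83 in RPMI8226. It ran against most of the list in RPMI8226, where CD38 was at 1.67 in CO, XBP1 at 1.24 in TSW and PRDM1 at 1.12 in CO.

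The cytosolic members include 8 that belong to the multisynthetase complex. Of these 4 rose in TSW of MM.1S and 4 in CO (medians 0.39 and 0.30), and of the other 12, 8 and 7 rose (medians 0.80 and 0.64). Without the first MONO library these counts were 2 and 2 in the complex, and 8 and 6 outside it. In RPMI8226, 1 of the 8 in the complex (MARS) rose in each, beside 14.5% and 16.4% of all genes, and RARS fell in CO (medians 0.06 and -0.18). Without CO library 1 neither was called in CO. Of the other 12, 6 rose in each, with 1 and 2 lower (medians 0.59 and 0.47). The difference between these groups was not tested. By class, 6 and 5 of 9 class I members rose in MM.1S, and 4 and 4 in RPMI8226 with 0 and 1 lower; of 10 class II members 5 and 5 rose in MM.1S, and 3 and 3 in RPMI8226 with 1 and 2 lower. Of all genes 6.48% and 7.13% rose in MM.1S, and in RPMI8226 14.5% and 16.4% rose and 17.9% and 22.9% fell. EPRS, which joins enzymes of both classes in 1 protein, is in neither count. Without the first MONO library 5 and 5 of class I and 5 and 3 of class II rose in MM.1S.

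None of the 3 scaffold partners of the complex was called higher against MONO in either line. AIMP2 was at 26.9 and 29.2 (MONO), 12.3 and 12.2 (TSW) and 8.15 and 9.93 (CO) in RPMI8226, and EEF1E1 at 25.4 and 21.3 (MONO), 17 and 9.72 (TSW) and 12.3 and 12.1 (CO). Both fell there, AIMP2 with log2 fold changes of -1.13 and -1.54 and EEF1E1 with -0.80 and -0.88. In the same comparisons 17.9% and 22.9% of all genes were called lower. AIMP1 was at -0.35 and -0.55 and was not called. In MM.1S none of the 3 was called, beside 6.48% and 7.13% of all genes higher and 4.16% and 4.65% lower. AIMP2 was at -0.34 and -0.49 there.

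Of the genes that act beside the synthetases on tRNA (7 genes, with TARS3 under its older symbol TARSL2), XPOT, the exporter of tRNA from the nucleus, rose in MM.1S (0.76 and 0.68, the latter not called without the first MONO library). It was the only 1 of 6 tested to do so, beside 6.48% and 7.13% of all genes called higher. In RPMI8226 XPOT was at -0.34 and -0.14, not called. In RPMI8226 TARSL2 fell (-0.59) in TSW, and SEPSECS rose (0.59) and DTD1 fell (-0.99) in CO. Of all genes in this line 14.5% and 16.4% were called higher and 17.9% and 22.9% lower. AARSD1 was at 0.646 and 0.248 (MONO), 2.53 and 2.62 (TSW) and 0.27 and 0.273 (CO), high in both TSW libraries alone. It passes the filter only through TSW, so its test is not given. In MM.1S it did not pass the filter.

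Of 13 factors of mitochondrial translation, limma called 0 in TSW and in CO of MM.1S (2 and 6 at an unadjusted p under 0.05; medians 0.10 and 0.14), and in RPMI8226 2 fell in TSW and 5 in CO, beside 17.9% and 22.9% of all genes (medians -0.34 and -0.45). TSFM, an elongation factor, was at 19.2 and 21.9 (MONO), 14.8 and 14.8 (TSW) and 9.94 and 10.4 (CO) in RPMI8226, with -0.95 in CO. MRRF, the ribosome recycling factor, was at 17.8 and 17.8 (MONO), 8.91 and 9.11 (TSW) and 9.21 and 9.28 (CO), with -0.91 and -0.88. GFM1, MTIF2 and MTFMT also fell in CO (-0.74, -0.72 and -0.69). For both lists in this paragraph, 4095 and 4467 of 10153 genes in MM.1S had an unadjusted p under 0.05 in TSW and CO. There 6.48% and 7.13% of all genes were called higher and 4.16% and 4.65% lower. Of the 5 cytosolic elongation factors, 0 were called in MM.1S (1 and 2 at an unadjusted p under 0.05; medians -0.25 and -0.21, or -0.10 and -0.06 without the first MONO library) and EEF1B2 alone fell, in CO of RPMI8226 (-0.61; medians 0.03 and -0.10).

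Other genes of the amino acid response also rose in both lines. Of 24 tested in MM.1S, 22 rose in TSW and 18 in CO with 1 lower in each (22 and 17 rose without the first MONO library; medians 1.27 and 0.90), beside 6.48% and 7.13% of all genes higher and 4.16% and 4.65% lower. In RPMI8226, leaving out CHAC1, 16 of 24 rose and 1 fell in TSW, and 12 rose and 2 fell in CO (medians 0.76 and 0.60), beside 14.5% and 16.4% of all genes higher and 17.9% and 22.9% lower. ATF4, the transcription factor of this response, was at 205, 135 and 139 (MONO), 373, 366 and 336 (TSW) and 265, 313 and 274 (CO) in MM.1S, and at 157 and 154 (MONO), 259.7 and 243 (TSW) and 286 and 242 (CO) in RPMI8226. Its first MONO library in MM.1S is the highest of the 3, and no group overlaps with MONO. For ATF4 the log2 fold changes were 1.19 and 0.85, and 0.69 and 0.76 (adjusted p 0.00027, 0.0023, 3.77e-05 and 1.49e-05).

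CHAC1, which degrades glutathione, rose in TSW and CO of MM.1S. The RPKM of CHAC1 was 1.85, 3.73 and 2.66 (MONO), 42.7, 43.8 and 42.2 (TSW) and 22.2, 27.7 and 24.9 (CO) in MM.1S, and 0.514 and 0.39 (MONO), 14.6 and 10.6 (TSW) and 12.5 and 9.82 (CO) in RPMI8226. Its MONO libraries are far below all others. In RPMI8226 it passes the filter only through TSW and CO, so its test there is not given and it is left out of the counts and medians against MONO. For CHAC1 the log2 fold changes were 3.58 and 2.82 in MM.1S. DDIT4, an inhibitor of mTORC1, was at 2.67 and 3.06 in MM.1S, and 3.38 and 3.34 in RPMI8226. PHGDH, the first enzyme of serine synthesis, was at 1.46 and 1.02, and 2.26 and 1.51, and the leucine sensor SESN2 at 1.57 and 1.23, and 2.23 and 2.11. ATF5 fell in all 4 comparisons (-1.41, -1.33, -0.93 and -1.05). Between CO and TSW, 0 of 24 were called in MM.1S (CHAC1 and TRIB3 were lower without the first MONO library). In RPMI8226, of 25 tested, 0 rose and 3 fell, PHGDH, PYCR1 and TRIB3 (-0.75, -0.59 and -0.68). Of all genes 0.374% were higher and 0.0394% lower between CO and TSW in MM.1S, and 1.9% and 2.39% in RPMI8226.

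The kinases of eIF2 and the subunits that direct its phosphatase, 6 genes upstream of ATF4 translation, were called once in MM.1S (1 higher in TSW, 0 in CO; medians 0.20 and 0.19; without the first MONO library 0 higher and EIF2AK3 lower in both, medians 0.09 and 0.12), and 4 rose in TSW and 3 in CO of RPMI8226 (medians 0.70 and 0.71). PPP1R15A, the phosphatase subunit also called GADD34, was at 1.75 and 1.33 (MONO), 7.27 and 5.97 (TSW) and 9.67 and 8.93 (CO) in RPMI8226, with 1.58 and 2.02. EIF2AK2, the kinase PKR and itself an interferon target, was at 0.95 and 1.26. The interferon response list, set beside WARS, included genes that rose in both lines: 4 of 7 tested in TSW and 3 in CO of MM.1S (3 and 3 without the first MONO library; medians 0.63 and 0.48), and 7 of 7 in each in RPMI8226 (medians 2.17 and 2.41), leaving out GBP1, which passes the filter there only through TSW and CO. For both lists the shares of all genes called higher were 6.48% and 7.13% in MM.1S, and 14.5% and 16.4% in RPMI8226.

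Set beside the promoters shown above, the 6 cytosolic genes with the exact motif all rose in at least 1 comparison with MONO. TARS, NARS and IARS among them rose in MM.1S alone. Over the 4 comparisons the mean log2 fold change of the 6 was at least 0.40 (IARS), with a median of 0.64. Of all genes, 6.48% and 7.13% rose in TSW and CO of MM.1S, and 14.5% and 16.4% in RPMI8226. The share of all genes that rose in at least 1 of the 4 is not given here. GARS, with the motif when any base is allowed at the sixth letter, was at 0.99. The 9 cytosolic genes with no match ran from -0.40 (RARS) to 1.07 (SARS) with a median of -0.17. Of these 9, 6 were called in at least 1 comparison, in either direction. Among the 9, SARS and WARS rose in both lines and EPRS in MM.1S (not without the first MONO library). FARSA, FARSB and RARS fell in RPMI8226. Genes with and without a match therefore rose.

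**Figure D4:**
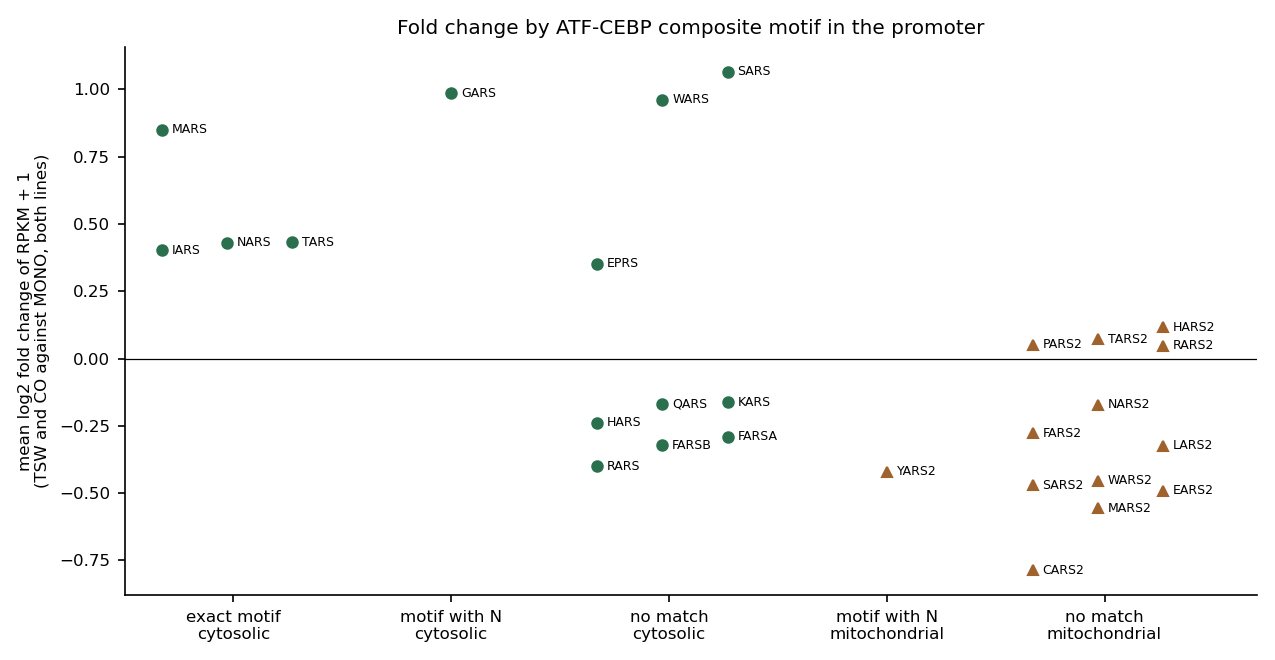
Mean log2 fold change over TSW and CO against MONO in both lines of 27 synthetase genes with a promoter in the RefSeq table, by whether any of their promoters (250 bases before to 50 after the start) holds the composite motif of an ATF and a C/EBP protein, exactly or with any base at its sixth letter. Each point is a gene; points are spread sideways for legibility. The genes shown with the exact motif all lie above 0, and genes with no match lie on both sides of it.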

How the data were processed

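mRNA from sorted cells of 15 libraries (9 MM.1S, 6 RPMI8226) was sequenced, and the authors aligned reads to hg38 with Subread and counted them on RefSeq genes with featureCounts. The authors deposited log2 of RPKM + 1 for each gene and library, with 1e-04 added to every value, as read from the values themselves. The design had assumed plain RPKM, so here the added constant was taken off and RPKM was computed back; the test on log2(RPKM + 1) is as planned. The steps between neighbouring values of a library give back its tag counts, which came out within 0.05 of a whole number for 100% of values above 0. Tags on genes ran from 9008909 to 19050583 per library, at which 1 tag on 2 kb is an RPKM of 0.0263 to 0.0555, and a member had at least 77 tags (PARS2). Genes whose RPKM averaged 1 or more in a line were fitted with limma 3.58.1 (lmFit, contrasts, eBayes with trend) in R 4.3.3, all conditions of a line together, with Benjamini-Hochberg adjustment within a comparison; values and figures came from Python 3.11.15 with pandas 2.3.3, numpy 2.4.6, scipy 1.17.1 and matplotlib 3.10.9. The fit was also run on simulated counts, with the same setting of the spread for all genes and libraries. These counts had no drift with gene length or GC content, so they do not show how the fit behaves on libraries that drift.

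Values of every library are given for the 6 cytosolic members with the largest mean absolute log2 fold change over the 4 comparisons with MONO among those called, the 6 mitochondrial members with the largest called change, GARS, KARS and the cytosolic member with the smallest change; other members are given by counts and examples, which were chosen after their values were seen. Lists are described by counts and medians, without a test: cytosolic and mitochondrial synthetases, members of the multisynthetase complex and the other cytosolic members, class I and class II, partners, helpers, mitochondrial translation, cytosolic elongation, amino acid response, eIF2 kinases and phosphatase subunits, interferon response, stromal markers and myeloma markers. Members and lists were chosen with earlier results of these data known. The iars2 symbol in lower case was left out of the counts by the rule. Alternatives were a pseudocount of 0.1, no filter, a minimum average RPKM of 5, median-of-ratios and quantile scaling, a replicate block, no fold change threshold, voom on the tag counts, a loess correction (span 0.4) for GC content and length, leaving out each library, and, chosen after seeing the data, IARS2 counted as mitochondrial. Accessibility data of the study were not analysed here. Results on some single genes and promoters, though they enter the counts, are not reported here.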

Additional observations from a re-analysis of the deposited data

Results flagged for a closer look

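EPRS, IARS and LARS, all members of the multisynthetase complex, stand out among the members called higher in CO of MM.1S. In these 3, every CO library of MM.1S is above every MONO library, while every CO library of RPMI8226 is below every MONO library. RARS2, a mitochondrial member, has the same order of libraries. Its log2 fold changes were 0.28 in MM.1S and -0.08 in RPMI8226, called in neither. Such a lack of overlap, in either direction, is common: 43.9% of all genes tested in MM.1S have it between CO and MONO, and 87% in RPMI8226 with 2 libraries per condition. The log2 fold changes in CO against MONO were 0.59 for EPRS in MM.1S and -0.10 in RPMI8226, 0.86 and -0.27 for IARS, and 0.74 and -0.21 for LARS. The difference between the lines was not tested, and in RPMI8226 none of the 3 was called (adjusted p 0.23 for EPRS, 0.0289 for IARS and 0.0241 for LARS, the last of which, like IARS, missed only the threshold on fold change). In MM.1S, EPRS and LARS were not called in CO without the first MONO library or with the GC and length correction.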

How the results depend on the processing

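The counts of cytosolic members called higher kept to within 1.5 times in every setting, and the 33 calls of members given by library kept their direction and side of the threshold in all 526 alternatives in which the gene was tested. Some calls of other members were lost, as given in the text for those named there. The difference between the mean log2 fold changes of cytosolic and mitochondrial members stayed above 0 in TSW and CO against MONO in both lines. With quantile normalization it was 0.67 in TSW and 0.67 in CO against MONO and 0.00 (-0.002) in CO against TSW in MM.1S, beside 0.57, 0.52 and -0.05. Mitochondrial members called lower in CO of MM.1S went from 0 to 1 with a pseudocount of 0.1, median-of-ratios scaling, quantile normalization and voom. In TSW of RPMI8226 a mean RPKM of at least 5 left 2 mitochondrial members lower instead of 4, since fewer genes were tested. Median-of-ratios scaling, quantile normalization and the GC and length correction left 0 cytosolic members lower there instead of 1, and the last left 1 instead of 3 in CO. For these changes the cause was not tested.

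With no fold change threshold, by construction more members were called: in MM.1S 2 cytosolic and 1 mitochondrial lower in TSW, and 1 cytosolic and 2 mitochondrial lower in CO; in RPMI8226 5 cytosolic and 9 mitochondrial lower and 1 mitochondrial higher in TSW, 8 cytosolic lower in CO, and 12 cytosolic and 6 mitochondrial lower in CO against TSW. Leaving out each library in turn (a lone RPMI8226 library is assumed to vary like the others) gave 0 to 1 mitochondrial members lower in TSW and 0 to 2 in CO of MM.1S, and 0 to 1 cytosolic members lower in TSW of RPMI8226. There the difference between the means ran from 0.64 to 0.82 in CO against MONO and from -0.106 to 0.075 in CO against TSW.

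With the replicate number as a block, no member count changed (12 cytosolic members higher in TSW and 11 in CO of MM.1S, 7 and 7 in RPMI8226; 4 and 9 mitochondrial members lower in RPMI8226), and the differences stayed at 0.57, 0.52, -0.05, 0.75, 0.73 and -0.02. Whether same-numbered libraries belong together is not given by the labels and was not tested. Their deviations had correlations from -0.38 to 0.29 in MM.1S, and from 0.16 to 0.27 in RPMI8226 with 2 pairs. Counting IARS2 as mitochondrial, an alternative chosen after seeing the data, changed no count and gave differences of 0.56, 0.51, -0.05, 0.74, 0.72 and -0.02.

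With 2 libraries per condition in RPMI8226 the spread rests on few values, and the low tag counts of PARS2, VARS2 and WARS2 limit their precision. RPKM are relative to all reads on genes, so a shared change of all genes is not seen.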
